A study of Oryctolagus cuniculus with 16 samples.

Results

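The lineage-marker miRNAs are the known rabbit miRNAs of 10 families that are commonly read as markers of a cell lineage. They were taken by name from the small RNA-seq table, and both arms of a hairpin were included where both were listed. Blood was represented by miR-223, miR-144, miR-451, miR-486 and miR-150, vessels by miR-126, cartilage by miR-140, muscle by miR-133a and miR-206, and stroma by miR-214. The names of 9 of the 10 families matched, which gave 15 of the 866 listed miRNAs, of which 401 were known and 465 predicted. The table gave no name for miR-126, so the vessel marker was not analysed here. Of the 15 members, 12 had at least 10 reads in every library.

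The samples were femoral heads of rabbits, and per the study's methods the rabbits purchased were wild-type. In the Perthes group, the femoral neck of 8-week-old rabbits was ligated and the ligamentum teres was transected, which obstructs the blood flow to the epiphysis. The labels call the control group wild type, which names no difference in genotype from the Perthes group. The age and surgery of the controls are not given in the sources used here, and neither is the age of any rabbit when the tissue was taken. Small RNA values were analysed for Perthes rabbits 1, 2 and 3, and the other small RNA samples were not analysed here, so that no miRNA was compared between Perthes and control rabbits. Total RNA was analysed for 5 Perthes and 3 control rabbits. A small RNA library and a total RNA library with the same number were set side by side, although the labels state only that the number is the same.

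A miRNA is cut from a hairpin transcript by DROSHA and DICER1, and either strand of the hairpin, named the 5p or the 3p arm, can be loaded into an Argonaute protein to repress mRNAs. miR-144 and miR-451 are copied together in red cell precursors, and miR-451 is an exception because AGO2 instead of DICER1 matures it, from the 5p side. miR-486 also accompanies red cell maturation and is known from muscle too, but was counted here as blood. miR-223 is typical of neutrophils and other myeloid cells, and miR-150 of mature lymphocytes. miR-140 is known from chondrocytes, miR-206 and miR-133a from skeletal muscle, and miR-214 from mesenchymal cells.

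The 3 small RNA libraries held 2535769, 2287350 and 2469922 reads on listed miRNAs. RPM, the unit of the miRNA levels, is a read count scaled to a common library total, and CPM is the same for gene counts, here with library sizes adjusted by the TMM method. The authors' RPM values relate the counts to a larger total of 21584135 to 21983046 reads, so that listed miRNAs made up 10.6% to 11.7% of it. A single read was therefore worth 0.0455 to 0.0463 RPM. For a count of 0, the exact 95% interval reached 3.69 reads, or 0.168 to 0.171 RPM, and such limits cover counting error only. A fixed floor of 3 reads stood for 0.136 to 0.139 RPM. In the total RNA of the 5 Perthes rabbits, all 9 bone markers on the list were detected, and the cartilage collagen gene *COL2A1* was between 29008 and 116594 CPM.

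Blood miRNAs led the members. miR-451-5p had 3752, 4013 and 3893 RPM in Perthes rabbits 1, 2 and 3, a mean of 3886 ± 131 RPM (SD, n = 3). It had rank 7 of the 401 known miRNAs by mean RPM. miR-150-5p had 3001, 3891 and 3836 RPM (3576 ± 498, SD, n = 3). The ratio of miR-451-5p to miR-150-5p lay between 1.02 and 1.25 in the 3 libraries, with a mean log2 ratio of 0.13 and an SD of 0.17, so these neighbours in the order of levels did not differ beyond their spread.

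The remaining blood miRNAs were far lower. miR-223-3p had 59.2, 72.1 and 49.4 RPM, and its mean of 60.2 ± 11.4 RPM (SD, n = 3) gave it rank 92 among the known miRNAs. miR-486-5p had 16.1, 23.2 and 19.2 RPM, so miR-451-5p exceeded this other red cell miRNA by 173-fold to 233-fold within a library. miR-144-5p, which lies beside miR-451 in the rabbit RefSeq annotation (assembly mOryCun1.1, used for names and neighbours only), had 30, 37 and 13 reads, or 1.39, 1.71 and 0.591 RPM. The neighbouring hairpins therefore differed by 2345-fold to 6583-fold in the reads of their listed 5p arms.

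The last 3 arms were at or near the limit of detection, all of them the less abundant strand of a blood hairpin. miR-144-3p had 0, 1 and 0 reads. miR-486-3p was seen only in rabbit 2, with 14 reads, while rabbits 1 and 3 had 0. miR-150-3p had 10, 0 and 38 reads beside at least 64780 reads of miR-150-5p.

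**Figure D1:**
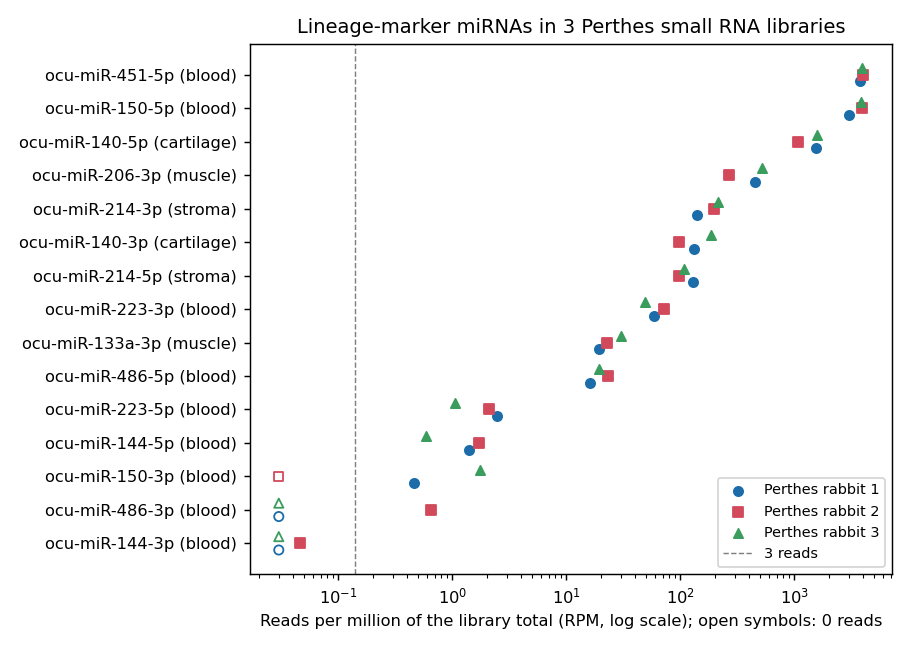
Level of each of the 15 member miRNAs in RPM (x axis, log scale) in the 3 Perthes small RNA libraries, with 1 symbol per rabbit and open symbols at the left edge for 0 reads. The dashed line marks 3 reads. The points of the 10 most abundant members lie within a 2-fold range, those of the lowest members lie further apart, and the order runs from miR-451-5p at 3886 RPM to miR-144-3p at 0 or 1 read.

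The cartilage miRNA followed the leading blood miRNAs. miR-140-5p had 1543, 1067 and 1584 RPM (1398 ± 288, SD, n = 3) and miR-140-3p had 133, 97.3 and 185 RPM (138 ± 44.2, SD, n = 3). Both arms were highest in rabbit 3 and lowest in rabbit 2. The same order of rabbits was found for 21.2% of the 269 known miRNAs with at least 10 reads in every library. Rabbit 2 was the lowest for 54.3% of these 269. miR-150-5p was higher than miR-140-5p in each library, by a mean log2 ratio of 1.37 (SD 0.46).

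Muscle miRNAs were next, with an uneven pair. miR-206-3p had 450, 267 and 518 RPM (412 ± 130, SD, n = 3) and was again lowest in rabbit 2. miR-133a-3p had only 19.2, 22.9 and 30.3 RPM, so miR-206-3p was 11.7-fold to 23.4-fold higher within a library. These muscle miRNAs also differed in the order of the rabbits, since miR-133a-3p was lowest in rabbit 1.

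Related muscle miRNAs were read beside them. miR-1-3p, which shares its seed with miR-206 and lies beside miR-133a in the annotation, had 68.0, 36.2 and 75.0 RPM. The ratio of miR-206-3p to miR-1-3p was 6.61, 7.38 and 6.91, with a log2 SD of only 0.08, whereas that of miR-1-3p to miR-133a-3p was 3.54, 1.58 and 2.47, with a log2 SD of 0.58. miR-1-3p thus kept a closer ratio to miR-206, which lies elsewhere in the annotation, than to the miRNA beside it. Of the cardiac and slow muscle miRNAs, miR-499-5p had 9.08, 3.75 and 9.19 RPM and miR-208a-3p had 0, 6 and 0 reads.

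The stroma miRNA was listed with both arms at similar levels. miR-214-3p had 139, 196 and 215 RPM (183 ± 39.6, SD, n = 3) and miR-214-5p had 129, 96.4 and 108 RPM (111 ± 16.8, SD, n = 3). The arms went in opposite directions, because rabbit 1 had the lowest 3p and the highest 5p value. miR-199a, which is beside miR-214 in the annotation, was more abundant, with 1479, 1203 and 1301 RPM for the 5p arm. The annotation also holds another miR-199a hairpin, within *DNM2*, and the listed reads are not split between the hairpins. The ratio of miR-199a-5p to miR-214-5p was 11.4, 12.5 and 12.1 (log2 SD 0.06), while that of the 3p arms was 6.28, 2.75 and 3.15 (log2 SD 0.64).

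Summed by lineage, blood members made up 73.9%, 82.1% and 74.7% of the members' RPM in rabbits 1, 2 and 3. Cartilage members held 18.1%, 11.9% and 16.9%, muscle members 5.07%, 2.98% and 5.25%, and stroma members 2.90%, 3.00% and 3.09%. Rabbit 2 thus had the largest blood share and the smallest cartilage and muscle shares. In RPM the sums were 7546 ± 626 for blood, 1536 ± 326 for cartilage, 436 ± 132 for muscle and 295 ± 27.3 for stroma (SD, n = 3 each). miR-451-5p and miR-150-5p, at means of 3886 and 3576 RPM, made up most of the blood sum. The lineages held unequal numbers of members, with the most for blood, so the sums do not measure shares of cells. All members together took 8.08% to 9.57% of the reads on known miRNAs.

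The order of the 15 members was held in all 3 libraries for 10 of the 14 pairs of neighbours. The mean log2 ratio was no larger than its SD for miR-451-5p over miR-150-5p, for miR-214-3p over miR-140-3p (0.43, SD 0.51), for miR-140-3p over miR-214-5p (0.28, SD 0.44) and for miR-133a-3p over miR-486-5p (0.30, SD 0.34). These comparisons between members were not tested and are descriptions.

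The share of the 5p arm differed widely between hairpins. It averaged 99.98% of the reads of both arms for miR-150, 91.1% ± 1.36 for miR-140 and 2.95% ± 0.962 for miR-223 (SD, n = 3). miR-214 stood between them at 48.2%, 32.9% and 33.4%, with exact binomial 95% intervals of 46.9% to 49.5%, 31.8% to 34.1% and 32.3% to 34.5%. Rabbit 1 thus lay 15.3 percentage points above the lowest rabbit. Among 94 known hairpins with at least 100 reads over both arms in every library, the median range was 1.86 points and 93.6% had a smaller range than miR-214. Of the 94, 74 had a mean 5p share over 90% or under 10%, where a range in points has little room. The less one-sided miR-199a and miR-142 had ranges of 6.17 and 9.54 points.

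**Figure D2:**
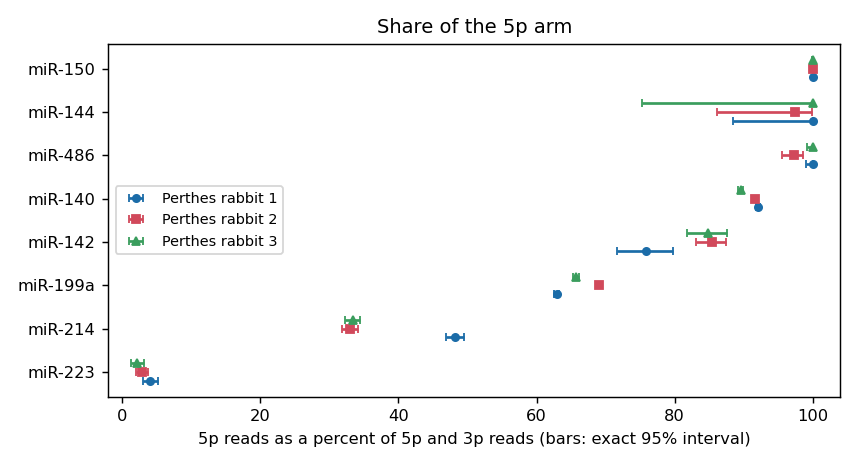
Reads of the 5p arm as a percent of the reads of both arms (x axis) for member hairpins with 2 listed arms and for miR-142 and miR-199a, with 1 symbol per Perthes rabbit and exact 95% intervals as bars. For miR-214, rabbit 1 at 48.2% stands apart from rabbits 2 and 3 at 32.9% and 33.4%, and miR-142 and miR-199a also differ between rabbits.

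The spread between the 3 rabbits differed among the members. The highest over the lowest RPM was 1.07 for miR-451-5p and 1.30 for miR-150-5p, and it lay between 1.34 and 1.94 for 8 further members. It was 2.35 for miR-223-5p and 2.90 for miR-144-5p, whose lowest libraries held 23 and 13 reads. The median over 269 known miRNAs with at least 10 reads in every library was 1.81, and 8 of the 12 members with as many reads lay below it, but after TMM scaling over the known miRNAs only 6 of 12 lay below the median of 1.72. Abundant miRNAs as a class varied little, since the 20 most abundant known miRNAs had a median of 1.15, and 5 of those 20 varied less than miR-451-5p and 14 less than miR-150-5p. miR-451-5p, miR-150-5p and miR-486-5p had the order rabbit 2, rabbit 3, rabbit 1, which 11.2% of the 269 miRNAs shared. The spread of miR-451-5p depended on the total used, as it was 1.19 per listed miRNA read and 1.43 after TMM scaling. TMM scaling also moved miR-150-5p to 1.73, miR-223-3p to 1.81 and miR-486-5p to 1.93. It lowered the spread of miR-140-5p to 1.20, miR-140-3p to 1.53, miR-206-3p to 1.56 and miR-214-5p to 1.12, and raised that of the rest of the 12.

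The mRNAs of the same blood lineages in the total RNA with the same rabbit numbers varied far more. Of 10 erythroid genes, 9 had at least 10 counts in rabbits 1 to 3, and their highest over lowest CPM had a median of 102, against 1.55 over all genes with as many counts. The erythropoietin receptor gene *EPOR* had 2.63, 28.9 and 8.30 CPM in Perthes rabbits 1, 2 and 3. *ANK1*, the red cell ankyrin gene whose annotated span holds the miR-486 hairpin, had 2.23, 223 and 35.7 CPM, a 99.97-fold range beside the 1.44-fold range of miR-486-5p. miR-486 is also read as a muscle miRNA, so it does not mark red cells alone. Of the 9 erythroid genes, 8 had the order rabbit 2, rabbit 3, rabbit 1, which 23.8% of all genes shared. The related blood cell miRNA miR-142-5p had this order too, at 16.2, 42.5 and 23.5 RPM in Perthes rabbits 1, 2 and 3. Its 2.63-fold range was wider than that of miR-451-5p, miR-150-5p, miR-223-3p or miR-486-5p. The other arm, miR-142-3p, had 5.14, 7.26 and 4.185 RPM, a 1.73-fold range. Values of other genes in the plot by rabbit number were chosen after they were seen.

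The mRNAs of the other lineages were set beside their miRNAs in the same way, without a test of the difference. The neutrophil calprotectin gene *S100A8* had 4.36, 253 and 77.0 CPM, and the 6 neutrophil genes with enough counts had a median range of 60.5-fold, while miR-223-3p had a range of 1.46-fold. The 8 lymphocyte genes had ranges from 1.21-fold to 8.25-fold with a median of 2.77-fold, beside 1.30-fold for miR-150-5p. Their levels were low, with *MS4A1*, the CD20 gene of B cells, at 1.32, 4.38 and 1.91 CPM. Cartilage genes had a median range of 2.18-fold, beside 1.49-fold for miR-140-5p, and stroma genes 1.77-fold, beside 1.34-fold and 1.55-fold for the arms of miR-214.

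Muscle mRNAs were near 0 in the total RNA of rabbits 1 to 3. *ACTA1*, the skeletal muscle actin gene, had 0.101, 0.337 and 0.367 CPM in Perthes rabbits 1 to 3, from 3 to 10 counts, and *MYLPF* had no more than 1 count. Only *DES*, which is also expressed in smooth muscle, had at least 10 counts in each of the 3 rabbits, at 2.09, 1.72 and 2.68 CPM. A miRNA level in RPM and an mRNA level in CPM are on different scales, and they are given here side by side without a ratio.

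**Figure D3:**
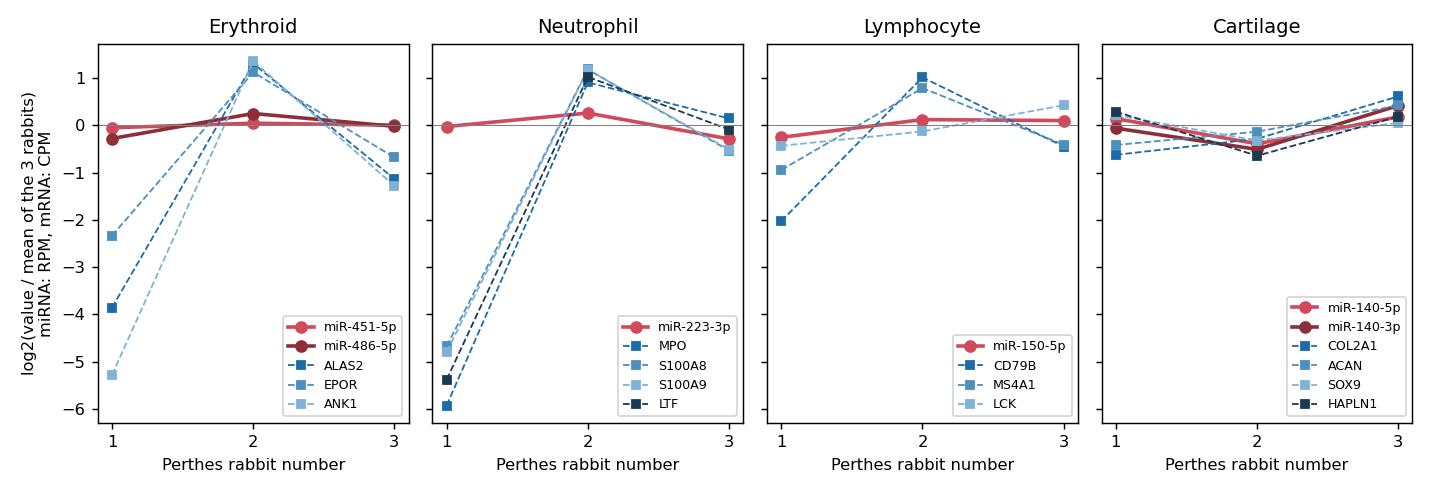
Level in Perthes rabbits 1, 2 and 3 (x axis) as the log2 of the value over the mean of the 3 rabbits (y axis), for member miRNAs in RPM (solid lines) and for mRNAs of the same lineage in TMM-scaled CPM (dashed lines). The plotted erythroid and neutrophil mRNAs are far lower in rabbit 1 than in rabbit 2, while miR-451-5p, miR-486-5p and miR-223-3p stay near 0. The plotted cartilage mRNAs and miR-140 stay within 1 of 0. Only some genes of each list are plotted. The erythroid gene *TFRC*, which is not, had 641, 582 and 427 CPM, and cartilage genes that are not plotted ranged up to 3.81-fold.

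Perthes and control rabbits could be compared in total RNA. In bulk tissue, fewer cells of a type and less RNA per cell cannot be told apart. edgeR's quasi-likelihood test with Benjamini-Hochberg adjustment called 6.21% of 15305 genes higher and 8.86% lower in Perthes rabbits at an adjusted p below 0.05. Of the 4 protein-coding genes on the host gene list that matched, none was called by edgeR, and 1 had an unadjusted p below 0.05. *ANK1* (gene 100356919) ranged from 2.23 to 223 CPM in Perthes rabbits with a median of 35.7, and had 593, 456 and 359 CPM in controls. Its groups did not overlap, and edgeR gave a log2 fold change of -2.94 with a standard error of 1.12 and an adjusted p of 0.108.

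The other host genes had overlapping groups. *WWP2*, a ubiquitin ligase gene that holds miR-140, had 181 ± 63.7 CPM (SD, n = 5) against 140 ± 18.7 CPM (SD, n = 3), with a log2 fold change of 0.37 (adjusted p = 0.401 from edgeR). *DNM3*, a dynamin gene around miR-214, had 6.75 ± 2.06 against 5.01 ± 0.539 CPM, and *MIB1*, a ubiquitin ligase gene around miR-133a, 153 ± 32.0 against 110 ± 28.4 CPM. The lncRNA LOC108177642 overlaps miR-214 and the miR-199a hairpin beside it in the annotation, and was looked up after the miRNA values were seen. This lncRNA had 41.1, 8.28, 7.20, 13.7 and 12.1 CPM in Perthes rabbits 1 to 5 and 3.68, 6.91 and 10.2 CPM in controls. It was highest in rabbit 1, and its log2 fold change of 1.25 had an adjusted p of 0.195 from edgeR. It lies within the span of *DNM3*, and whether the counting used strand is not given in the sources used here.

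Blood mRNAs accounted for most of the calls. Of 10 erythroid genes, 3 fell and 7 did not pass after adjustment, although all 10 had an unadjusted p below 0.05 from edgeR. Their median log2 fold change was -2.99 against 0.02 over all genes. *EPOR* averaged 10.5 ± 10.6 CPM in the 5 Perthes rabbits and 59.5 ± 19.99 CPM in the 3 controls (± SD), and edgeR gave it a log2 fold change of -2.50 with a standard error of 0.66 and an adjusted p of 0.0357. *TFRC*, the transferrin receptor gene, fell by 0.67 on the log2 scale (adjusted p = 0.0443 from edgeR). The neutrophil list had 4 of 7 tested genes lower, all 7 at an unadjusted p below 0.05 from edgeR, and a median of -3.63. Among the 4 were *CEBPE*, a granulocyte transcription factor gene, *MMP8*, a neutrophil collagenase gene, and *S100A8*, at -3.60, -3.63 and -3.76. In the lymphocyte list 1 of 8 genes fell, *MS4A1* at -2.03 (adjusted p = 0.04999 from edgeR). Of these 8, 3 had an unadjusted p below 0.05 from edgeR, and the list median was -0.81.

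The other lineages gave few calls. None of 10 endothelial and none of 8 cartilage genes was called by edgeR, with 3 and 2 at an unadjusted p below 0.05 and list medians of 0.05 and 1.02. Of 9 stroma genes 2 rose, *COL3A1*, a fibrillar collagen gene, at 2.34 and the fibroblast surface gene *THY1* at 1.35, and the list median was 0.61. Of 5 muscle genes tested, *PAX7*, a satellite cell transcription factor gene, fell from 1.63 ± 0.477 to 0.422 ± 0.192 CPM, a log2 fold change of -1.94 (adjusted p = 0.0197 from edgeR). Of the 9 bone markers, 1 rose, the osteoclast protease gene *CTSK*, at 1.83 (adjusted p = 0.0272 from edgeR).

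Genes that act on the miRNAs or under them were read last. None of the 8 transcription factor genes tested was called, although *GATA1*, which drives the miR-144 and miR-451 locus, was lower in every Perthes rabbit than in any control, at 0.304, 38.1, 7.31, 6.84 and 1.53 CPM against 129, 99.8 and 83.5 CPM (log2 fold change -3.27, adjusted p = 0.0708 from edgeR). Among 11 tested genes known as targets none was called, and 4 had an unadjusted p below 0.05. *MYB*, a target of miR-150, had a log2 fold change of -2.73 and *ADAMTS5*, an aggrecanase gene targeted by miR-140, one of 1.53, with adjusted p-values from edgeR of 0.0609 and 0.0862. Of 7 processing genes 2 fell, *AGO2* to 39.5 ± 4.68 CPM in the 5 Perthes rabbits against 70.3 ± 8.70 CPM in the 3 controls (± SD), at -0.83 on the log2 scale (adjusted p = 0.0137 from edgeR), and *DROSHA* at -0.48 (adjusted p = 0.0455 from edgeR). *DICER1* had a log2 fold change of -0.24 (adjusted p = 0.244 from edgeR).

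**Figure D4:**
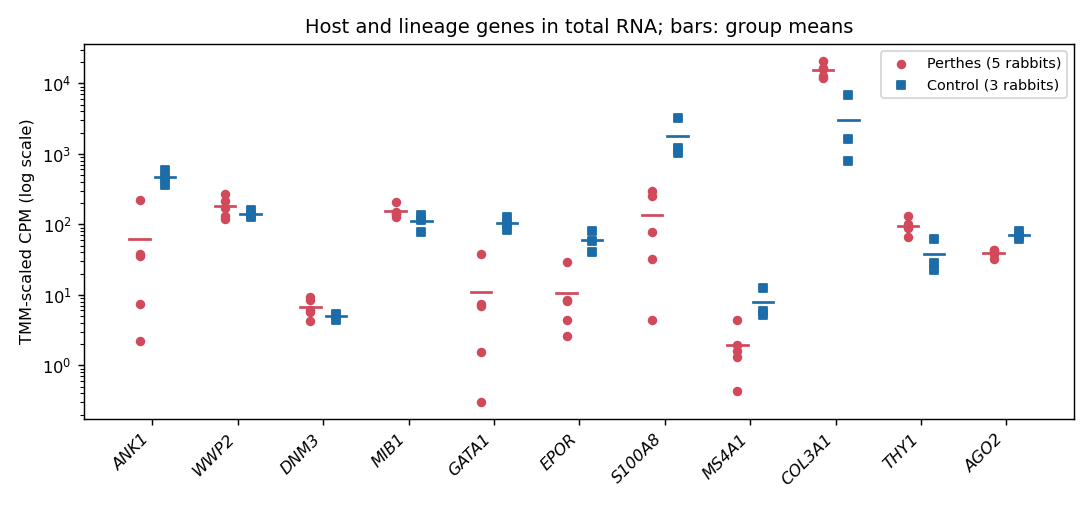
TMM-scaled CPM (y axis, log scale) of 4 host genes and 7 further genes in total RNA of 5 Perthes and 3 control rabbits, with 1 point per rabbit and bars at the group means. *ANK1*, *GATA1*, *EPOR*, *S100A8*, *MS4A1* and *AGO2* lie below the controls in every Perthes rabbit, *COL3A1* and *THY1* above them, and *WWP2*, *DNM3* and *MIB1* overlap.

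The number of calls moved when single rabbits were left out. Over the 85 tested genes of the lineage, host gene, transcription factor, target and processing lists, 2 were called higher and 11 lower, 11 and 30 of them at an unadjusted p below 0.05. Without control rabbit 1 or control rabbit 2, edgeR called none of them, with 6 and 19 or 10 and 25 at an unadjusted p below 0.05. Calls over all genes fell as well, from 951 higher and 1356 lower with all rabbits. They were 73 and 184 without control rabbit 1, and 0 and 0 without control rabbit 2. The listed genes called lower numbered 23 without Perthes rabbit 2, 1 without Perthes rabbit 3 and 7 without Perthes rabbit 4. They numbered 2 without Perthes rabbit 5 and 6 without control rabbit 3. Over all genes, the same settings in this order called 1628, 646, 1423, 550 and 1183 lower. *EPOR*, *ANK1* and *GATA1* were each highest in Perthes rabbit 2 among the Perthes rabbits.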

How the data were processed

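Per the labels and the study's methods, the authors trimmed small RNA reads with cutadapt, identified miRNAs with miRDeep2 and deposited the read count of each miRNA; the counting settings are not given in the sources used here. The authors also deposited RPM values, which equal these counts over 1 total per library. For total RNA, the authors used HISAT2 2.0.4, RSEM 1.1.17 and HTSeq 1.99.2 and deposited expected counts per gene, which were rounded here. Another 8 columns repeat these counts and were not used.

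RPM compares reads of miRNAs, not molecules. Small RNA values were described without a test, because only Perthes libraries were used and the planned group comparison could not be run. Total RNA (26757087 to 29461482 counts per library) was tested with edgeR 4.0.16 in R 4.3.3 on TMM-scaled counts after filterByExpr, with group as the only term. CPM is scaled by TMM, and the standard error is the fold change over the square root of F. On counts simulated for Perthes against control (15077 genes, 200 of them moved by 3 on the log2 scale), edgeR recovered 92% with 3 wrong calls. DESeq2 recovered 94% with 35 wrong calls on the same simulation (15305 genes). Smaller changes were not simulated. Per the study's methods, the total RNA came from 5 Perthes and 3 control rabbits.

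The members and all gene lists were chosen with earlier results of these data known. Named were all members, related miRNAs fixed in a list (miRNAs with the seed of a member were not searched, as no sequences were used here), every host gene, and up to 3 genes per list with the lowest adjusted p. *MYLPF*, *DICER1*, *COL2A1*, *CTSK*, LOC108177642 and some genes plotted by rabbit number were chosen outside that rule, after their values were seen. Of the genes the rule gave, 2 are not reported here by name, and list counts include them. Of 103 listed genes 88 matched by symbol or RefSeq gene number. The third control is coded 3 but titled replicate 2, and was taken as number 3. Alternatives were DESeq2 1.42.0, other scalings and filters, a block for the replicate number, and single libraries left out.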

Additional observations from a re-analysis of the deposited data

Results flagged for a closer look

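In total RNA, 31 named genes were examined for a Perthes rabbit far from the other 4 by Dixon's criterion, and 7 genes met it. Chance meets it in about 1 in 20 groups of normally distributed values. CPM was used without a log and several genes flagged the same rabbit, so the count of 7 was not tested against that rate. Perthes rabbit 2 was the high rabbit for 4 genes of blood lineages. *EPOR* was at 28.9 CPM there against 8.33 CPM in the next rabbit, and *ANK1* at 223 against 38.2 CPM. *GATA1* was at 38.1 against 7.31 CPM, and the B cell gene *CD79B* at 10.04 against 3.64 CPM. Perthes rabbit 4 stood above the others for the cartilage link protein gene *HAPLN1*, at 3226 against 1011 CPM, and for *ADAMTS5*, at 171 against 59.3 CPM. Perthes rabbit 1 was the high rabbit for *LUM*, the lumican gene, at 2130 against 878 CPM. The small RNA groups held 3 libraries and were not examined in this way.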

How the results depend on the processing

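Lineage sums changed unit with the total used. Scaled to listed miRNA reads the means were 67750 for blood, 13672 for cartilage, 3873 for muscle and 2641 for stroma, and to known miRNA reads 69649, 14033, 3973 and 2714. The order of the lineages was the same. With arms summed, 6 of 8 neighbours kept their order. Only 1 member varied less than the median of the 20 most abundant known miRNAs, a comparison chosen after seeing the data. Of the lineage, host, transcription factor, target and processing genes in total RNA, DESeq2 called 6 higher and 21 lower, against 2 and 11. Over all genes DESeq2 called 1700 higher and 1917 lower, against 951 and 1356. Library totals alone gave 1 higher and 16 lower of the listed genes, and no low-count filter gave 1 higher and 8 lower. Over all genes these settings gave 678 and 1705, and 854 and 1261. When 1 library was left out, 0 to 2 genes were called higher and 0 to 23 lower. Same-numbered Perthes and control rabbits had deviations correlated at -0.32, 0.16 and -0.24. Rabbits with different numbers lay between -0.31 and 0.44, so these values do not show whether the numbers pair the samples. With the replicate block, edgeR called 0 higher and 0 lower, both among the listed genes and over all genes. Of the listed genes, 5 and 18 had an unadjusted p below 0.05, and *WWP2* turned to -0.017. The causes of these changes were not tested. Low counts limit the values of miR-144 and of the minor arms.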
